A study of Mus musculus with 24 samples.

Results

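Lithium is a classical inhibitor of glycogen synthase kinase 3 (GSK3) and of inositol monophosphatase, and GSK3 works inside the complex that marks beta-catenin for destruction. The 8 genes described here were chosen by name and comprise the lithium targets Gsk3a, Gsk3b, Impa1 and Impa2 and 4 genes of beta-catenin and its control, Ctnnb1, Apc, Axin1 and Csnk1a1. All 8 were present among the 16572 gene names of the expression table.

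GSK3 alpha and GSK3 beta are constitutively active serine/threonine kinases that Akt switches off by phosphorylating a serine near their amino terminus. The scaffold proteins Axin and Apc hold beta-catenin next to GSK3 and casein kinase 1 alpha, which phosphorylate it so that it is ubiquitylated and degraded, and Wnt signalling interrupts this step. Beta-catenin also links cadherins to the actin cytoskeleton at the contacts between cells. The inositol monophosphatases encoded by Impa1 and Impa2 return inositol to the phosphoinositide cycle.

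The study grew oocytes in follicle-free culture from the ovaries of C57BL/6 Barb mice (the strain as the labels spell it) at postnatal day 7 and collected them by diameter. The study's methods describe the mice as a cross of the C57 Black6 and SV129 backgrounds. RNA-seq was made from class IV oocytes after 9 days at 5% O2 (IV 5% O2) or after 14 days at 20% O2 (IV 20% O2). Each condition had 2 libraries, and neither received an inhibitor. By the study's text, the culture medium contained follicle stimulating hormone, epidermal growth factor and fatty acid-free bovine serum albumin. The labels give a diameter of 60 to 70 µm for both, whereas the study's text gives a smaller range for the largest oocytes at 20% O2. The study also changed the medium more often at 5% O2. It counted a larger share of class IV oocytes with chromatin condensed around the nucleolus at 5% O2 than at 20% O2. Time in culture, medium changes and, by that text, size and chromatin state therefore differed together with oxygen, and their parts cannot be told apart. Lithium chloride was added in the study to 20% O2 cultures but to none of the RNA-seq samples, so the levels given here are those of oocytes that had not received it. The question addressed is at what level oocytes grown under each oxygen concentration carried the transcripts of the proteins on which lithium acts.

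Each condition is represented by 1 pooled column of the table, so there was no replicate check and no test of the conditions. The depth recovered from the values was 132185252 reads for IV 5% O2 and 40875358 for IV 20% O2, and 3 reads corresponded to 0.0227 and 0.0734 reads per 1000000 reads (RPM), respectively. Intervals of levels and differences are exact 95% intervals of the reads, those of ratios between genes are approximate (delta method), and both cover counting error only. All 14 oocyte markers had reads in both conditions, with summed levels of 10516 RPM at 5% O2 and 14315 RPM at 20% O2. Of these, 3 were at least 2-fold lower at 5% O2, beside 9.22% of all genes compared, and none higher, beside 18.7%, namely the zona pellucida genes Zp2 (1537 against 3807 RPM) and Zp3 (690 against 1501 RPM) and the receptor gene Kit (148 against 448 RPM). Theca and stroma markers stood higher in IV 5% O2, with 46.1 RPM against 7.17 RPM summed over 11 of 17 listed markers, and Dcn, Vim and Col1a2 had no read in IV 20% O2. The 7 granulosa markers in the table summed to 42.9 and 29.8 RPM, the 4 macrophage markers to 24.9 and 22.6 RPM, the 3 endothelial markers to 61.0 and 36.1 RPM, and the only erythroid marker in it stood at 1.32 and 1.57 RPM. Fshr had no read in IV 5% O2, and Inha, Lyz2 and Kdr had none in IV 20% O2. In such bulk samples fewer cells of a type and less RNA per cell cannot be told apart, and the part of somatic transcripts and of the shifts in oocyte markers in the differences below was not tested.

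Short coding stretches of 4 of the genes are shown first, because they hold the codons on which this control turns. They were read 5′ to 3′ on the coding strand from the GRCm38 chromosomes with the GENCODE transcript models. Capitals mark the codons named.
Gsk3a, exon 1, chr7:25237580-25237618, minus strand, codon 21 for the serine that Akt phosphorylates: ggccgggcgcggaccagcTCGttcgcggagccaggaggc
Gsk3b, exon 1, chr16:38090532-38090570, plus strand, codon 9 for the corresponding serine: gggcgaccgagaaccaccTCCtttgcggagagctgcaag
Ctnnb1, exon 3, chr9:120950587-120950661, plus strand, codons 33, 37, 41 and 45 for the residues that GSK3 and casein kinase 1 alpha phosphorylate: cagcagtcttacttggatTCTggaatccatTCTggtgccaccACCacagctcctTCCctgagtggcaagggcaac
Impa1, exon 4, chr3:10326112-10326159, minus strand, codons 90 and 93 for aspartates that bind the metal ions of the active site: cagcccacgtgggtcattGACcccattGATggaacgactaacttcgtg
The GSK3 stretches encode the same kind of site in separate genes, yet the longest run of bases shared by the exons of Gsk3a and Gsk3b was 15, and it was also 15 for Impa1 and Impa2. These runs are shorter than a sequencing read.

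Among the lithium targets, the GSK3 paralogs differed between the conditions in opposite directions. Gsk3a lies on chromosome 7 (25228258 to 25237851, minus strand) and had 7660 reads or 57.9 RPM at 5% O2, and 1254 reads or 30.7 RPM at 20% O2. Gsk3b lies on chromosome 16 (38089001 to 38246084, plus strand) and had 5621 reads or 42.5 RPM at 5% O2, and 2677 reads or 65.5 RPM at 20% O2. Gsk3a thus stood higher at 5% O2 and Gsk3b higher at 20% O2.

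On the log2(RPM + 1) scale Gsk3a differed by 0.90 (IV 5% O2 minus IV 20% O2; interval of the log2 ratio of reads 0.83 to 1.00) and Gsk3b by -0.61 (-0.69 to -0.56). Neither reached 2-fold. The median of all 14704 genes compared, those with a mean of at least 1 RPM, was 0.26, so that relative to the median gene Gsk3a stood 0.64 above and Gsk3b 0.87 below (-0.87). Their differences lay at the 78.0 and 16.1 percentiles of all genes compared.

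Levels of different genes are comparable only per length. Divided by the annotated exon length, 2.9 kb for Gsk3a and 9.83 kb for Gsk3b, the levels were 20.0 and 4.33 RPM per kb at 5% O2, and 10.6 and 6.66 RPM per kb at 20% O2. On this scale Gsk3a was the more abundant paralog in both conditions, with 82.2% of the GSK3 sum at 5% O2 and 61.4% at 20% O2. Without length Gsk3b had more RPM at 20% O2, so the order there rests on the length used. That length, here and below, counts all annotated exons of a gene, and which of them oocytes transcribe was not tested. The ratio of Gsk3a to Gsk3b was 4.62 at 5% O2 and 1.59 at 20% O2, a 2.91-fold difference (95% counting interval 2.70 to 3.14). The sum of both paralogs came to 24.3 and 17.2 RPM per kb, a log2 ratio of 0.50. A ratio within a column is not altered by a common factor, as in median-ratio scaling.

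The inositol monophosphatases were the lowest of the 8 genes in both conditions. Impa1 (chromosome 3, 10311956 to 10331439, minus strand) had 544 reads or 4.12 RPM at 5% O2 and 169 reads or 4.13 RPM at 20% O2. Impa2 (chromosome 18, 67289186 to 67322472, plus strand) had 1293 reads or 9.78 RPM and 447 reads or 10.9 RPM. Their log2 differences were -0.01 (-0.26 to 0.25) and -0.15 (-0.32 to -0.0025), which lay -0.26 and -0.40 from the median gene.

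Per length, Impa2 exceeded Impa1 by 2.41 times at 5% O2 and by 2.68 times at 20% O2, with a log2 change of the ratio of -0.15 whose counting interval included 0 (-0.45 to 0.14). Their levels, 1.82 and 0.757 RPM per kb at 5% O2, stood at the 29.6 and 14.6 percentiles of gene levels. The interval of Impa1 was wide enough that a difference of up to about 0.25 on the log2 scale in either direction was not detectable at this depth.

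Ctnnb1, which encodes beta-catenin, was the most abundant of the 8. It lies on chromosome 9 (120929216 to 120960507, plus strand) and had 71496 reads or 541 RPM at 5% O2 and 20915 reads or 512 RPM at 20% O2. This was 104 and 98.6 RPM per kb, at the 98.2 percentile of gene levels in each condition. The log2 difference was 0.08 (0.06 to 0.10), close to 0 and -0.18 from the median gene, and its sign depended on the scaling, with -0.24 after median-ratio scaling and -0.02 after quantile normalization.

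Csnk1a1, the casein kinase 1 alpha that phosphorylates beta-catenin before GSK3, was likewise at near equal levels. It lies on chromosome 18 (61555274 to 61590061, plus strand) and had 37166 reads or 281 RPM at 5% O2 and 10606 reads or 259 RPM at 20% O2. The log2 difference was 0.12 (0.08 to 0.15), -0.14 from the median gene, and it also turned negative under the other scalings (-0.20 and -0.13). The ratio of Ctnnb1 to Csnk1a1 per length was 3.89 and 3.99, a 0.976-fold difference (0.950 to 1.00).

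The scaffold genes also differed in opposite directions. Axin1, whose protein is the central scaffold that binds GSK3, beta-catenin and Apc, lies on chromosome 17 (26138688 to 26195811, plus strand) and had 18073 reads or 137 RPM at 5% O2 and 2116 reads or 51.8 RPM at 20% O2. The log2 difference was 1.38 (1.34 to 1.47), or 2.61-fold higher at 5% O2, and 1.13 above the median gene. Apc, the large scaffold that is lost in many intestinal tumours, lies on chromosome 18 (34220924 to 34322552, plus strand) and had 13455 reads or 102 RPM at 5% O2 and 8695 reads or 213 RPM at 20% O2. Its log2 difference was -1.06 (-1.10 to -1.02), or 2.08-fold lower at 5% O2, and -1.31 from the median gene. Added to a level per kb, the same pseudocount gave -0.96 for Apc, short of 2-fold.

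Axin1 was thus the only member at least 2-fold higher at 5% O2 (1 of 8, beside 18.7% of all genes compared) and Apc the only member at least 2-fold lower (1 of 8, beside 9.22%). Either way it was 2 of 8, beside 27.9% of all genes, so the members' shares lay near the background. Per length, Axin1 exceeded Apc by 5.65 times at 5% O2 (35.7 against 6.32 RPM per kb) and by 1.02 times at 20% O2 (13.5 against 13.2 RPM per kb), so the ratio differed 5.52-fold (5.24 to 5.82). The ratio of Ctnnb1 to Axin1 was 2.92 at 5% O2 and 7.29 at 20% O2, whereas that of Ctnnb1 to Apc was 16.5 and 7.47.

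**Figure D1:**
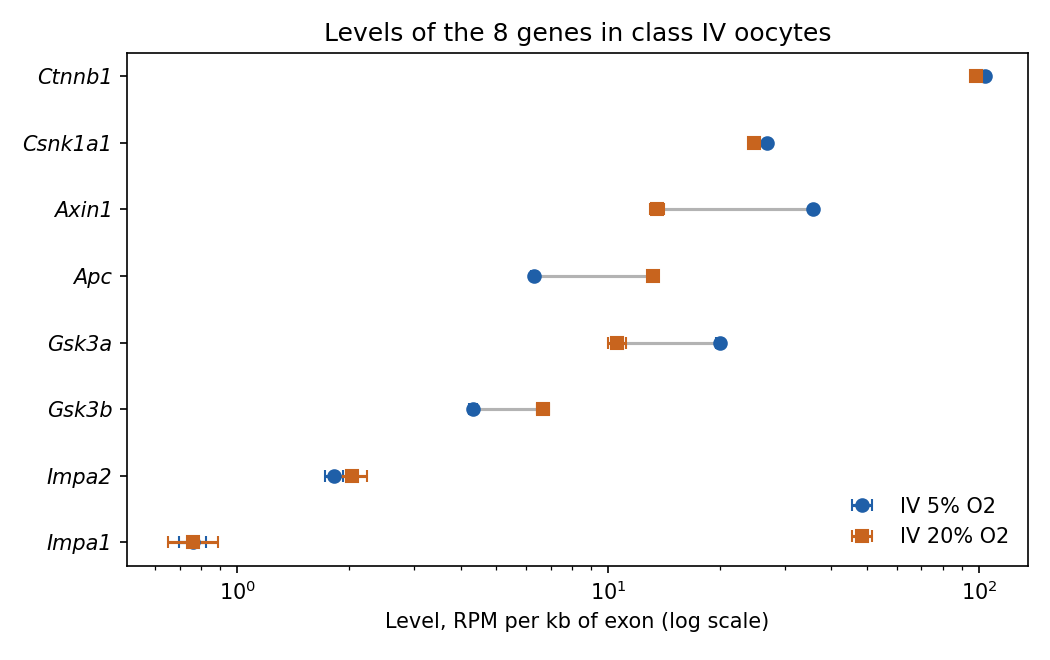
Levels of the 8 genes in RPM per kb of exon on a log axis, with 1 point for each condition (circles IV 5% O2, squares IV 20% O2), bars for the exact 95% counting interval and a grey line joining the conditions. Axin1 and Gsk3a lie to the right at 5% O2 and Apc and Gsk3b to the left, while Ctnnb1, Csnk1a1, Impa1 and Impa2 lie close together.

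The order of the levels per length was Ctnnb1, Axin1, Csnk1a1, Gsk3a, Apc, Gsk3b, Impa2 and Impa1 at 5% O2, and no neighbours in it had overlapping counting intervals. In IV 20% O2 it was Ctnnb1, Csnk1a1, Axin1, Apc, Gsk3a, Gsk3b, Impa2 and Impa1, with overlapping intervals for Axin1 and Apc. The same genes thus held the first and the last 3 places in both conditions, and Axin1, Csnk1a1, Gsk3a and Apc exchanged the places between. The intervals hold no spread between libraries, so a neighbour that is separated by counting error may not be separated between cultures.

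Relative to the median gene of each setting, Axin1 ranged from 1.10 to 1.15, Gsk3a from 0.61 to 0.67, Gsk3b from -0.91 to -0.73 and Apc from -1.35 to -1.16 over the scalings, filters, pseudocounts and length tried. Subtracting the median gene cancels a common factor, so median-ratio scaling could hardly move these values. Of the members, Gsk3a (59.0%) and Axin1 (56.6%) had the highest GC content of exons, and Csnk1a1 (40.6%), Apc (43.3%) and Impa1 (44.5%) the lowest. Across deciles of exonic GC, the median log2 difference of all genes was lowest in the second (0.15) and highest in the tenth (0.51). Over 14692 genes, the correlation of the difference with GC was weak (Pearson 0.07, Spearman 0.11). Relative to the genes of their own GC decile, a comparison chosen after seeing the data, the differences were 0.94 for Axin1, 0.38 for Gsk3a, -0.83 for Gsk3b and -1.20 for Apc, so that Axin1 no longer reached 2-fold. The part of base composition in these differences was not tested further.

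**Figure D2:**
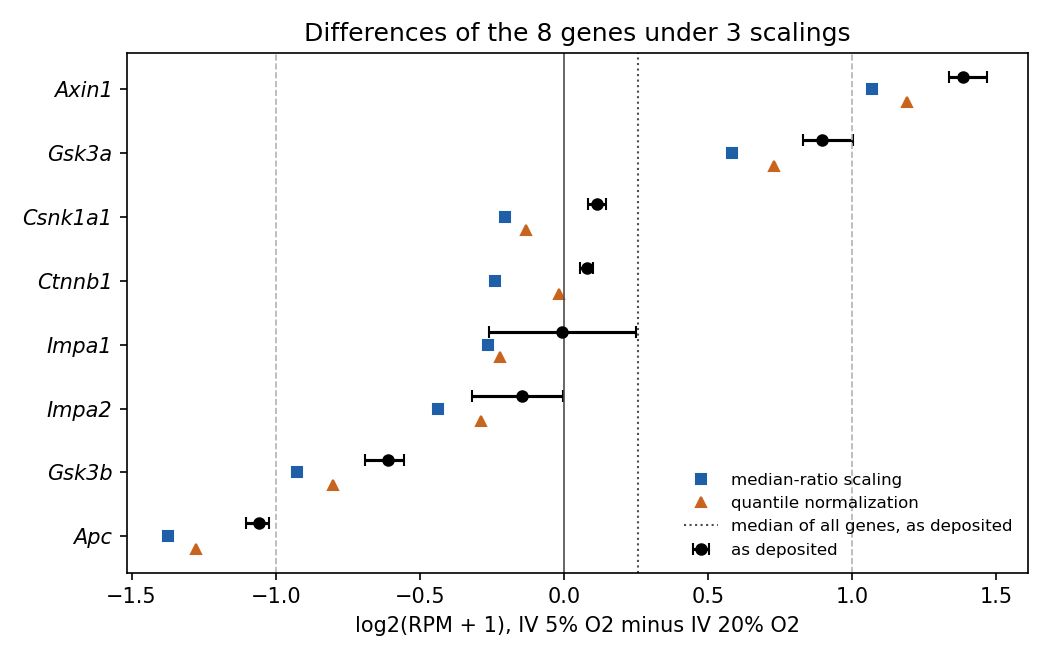
Difference of each gene in log2(RPM + 1), IV 5% O2 minus IV 20% O2, as deposited (circles, with the 95% counting interval of the log2 ratio), after median-ratio scaling (squares) and after quantile normalization (triangles). Dashed lines mark 2-fold and the dotted line the median of all genes at 0.26; Axin1 stays past 2-fold higher and Apc past 2-fold lower in all 3 scalings, and Ctnnb1 and Csnk1a1 cross 0.

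**Figure D3:**
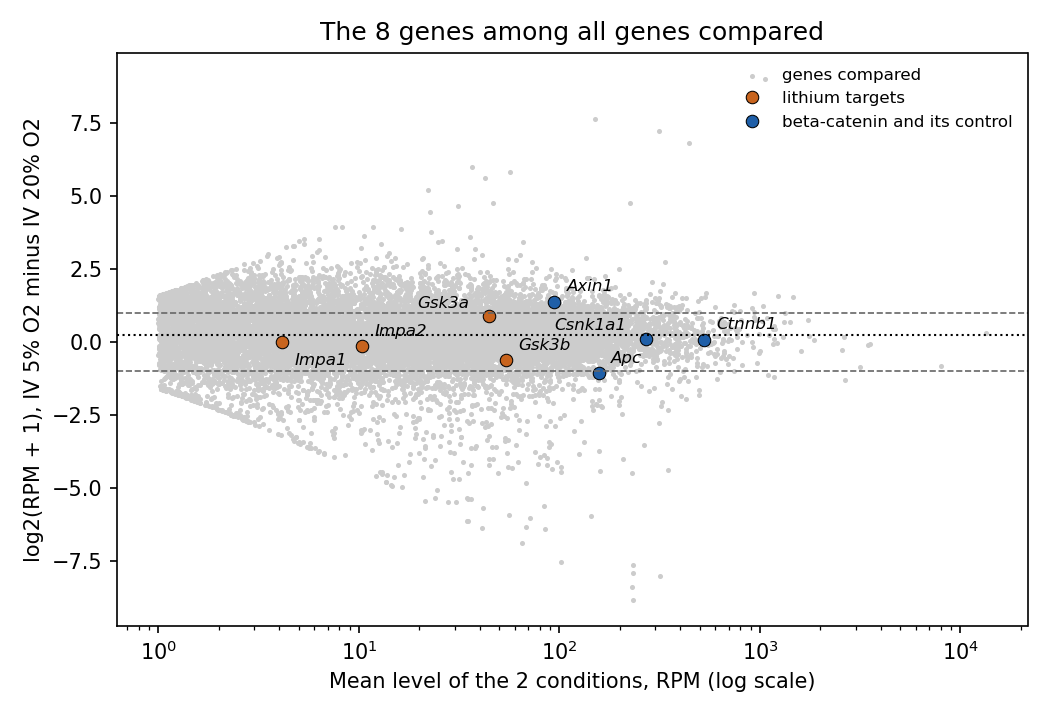
Difference in log2(RPM + 1), IV 5% O2 minus IV 20% O2, against the mean level in RPM (log axis) for the 14704 genes compared (grey) with the 4 lithium targets in orange and the 4 genes of beta-catenin and its control in blue. Dashed lines mark 2-fold and the dotted line the median; all 8 genes lie inside the cloud of other genes.

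Features that could carry reads of other genes were looked for in the exons. Exact repeats of 50-base windows elsewhere in the genome made up 5.28% of the windows of Gsk3a, 0.986% of those of Apc and 0.324% of those of Gsk3b, and 0 of those of the other members. Exons of Gsk3a overlap the antisense gene 9130221H12Rik over 820 bases, and that gene had 19.3 RPM at 5% O2 and 13.9 RPM at 20% O2. Exons of Ctnnb1 overlap Ulk4 on the opposite strand over 759 bases, with 125 and 129 RPM for Ulk4. Exons of Impa1 share 243 bases with Gm38303 on the same strand, which had 0.469 and 0.685 RPM, and those of Impa2 share 1264 bases with B430212C06Rik on the opposite strand. The libraries kept strand, but whether the counting used it is not stated, and the part of these neighbours in the values was not tested.

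The genes with the levels most like those of Gsk3b, by the Euclidean distance of log2(RPM + 1) over both conditions, were Polr1a, Maged1 and Aqr, at distances of 0.02, 0.03 and 0.03. For Ctnnb1 they were Surf4 (0.03), Ooep (0.12) and Dcp1a (0.15). The measure rests on 2 values for each gene, so that many genes lie near by construction.

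The wider pathway was described through 13 further lists with 195 different genes, of which 161 were in the table and 147 passed the level filter. Of these, 39 (26.5%) were at least 2-fold higher at 5% O2, beside 18.7% of all genes, and 9 (6.12%) were at least 2-fold lower, beside 9.22%. The median log2 difference was 0.44, beside 0.26 for all genes. Below, values are given as 5% O2 against 20% O2 with the log2 difference, and the gene of a list with the highest RPM is the one with the highest mean of both conditions, without length, which need not be the highest in each. Counts of a list are read beside 18.7% higher and 9.22% lower of all genes, and where no lower gene is mentioned the list held none, which in short lists says little. Of the 39, 8 passed the filter only through the 5% O2 column, with less than 1 RPM at 20% O2, as did 776 of the 2753 higher genes of the whole table, and 2 of the 9 lower genes passed only through the 20% O2 column. Such genes had to differ, and the counts of lists that hold them are descriptions of the genes that passed. The split depended on the scaling, with 21 higher and 14 lower after median-ratio scaling. Beside these, 1700 of all 14634 genes compared under that scaling were higher and 2031 lower, so the background moved as well.

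Upstream of GSK3, 4 of 9 regulators were at least 2-fold higher at 5% O2, beside 18.7% of all genes, with a median of 0.49. Akt1, Akt2, Sgk1 and Rps6ka1 encode kinases that can phosphorylate the GSK3 serines shown above, and Akt1 stood at 217 RPM at 5% O2 and 79.7 RPM at 20% O2, a log2 difference of 1.43. Sgk1 had the highest difference of the list (23.7 against 7.17 RPM, 1.59). Relative to genes of their own GC decile, Sgk1 stood at 1.39, Akt1 at 0.92, Akt2 at 0.67 and Rps6ka1 at 0.54. Of these 4 only Sgk1 still reached 2-fold in that comparison, which was chosen after seeing the data. Pdpk1, which activates Akt, had the highest RPM and was lower at 5% O2 (123 against 239 RPM, -0.95).

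Downstream, 3 of 12 GSK3 substrates were at least 2-fold higher, with a median of 0.04. Dpysl2 passed the filter only through the 5% O2 column. Cdc25a, a cell cycle phosphatase, had the highest RPM (154 against 96.2 RPM, 0.68), Dpysl2 the highest difference (4.27 against 0.832 RPM, 1.53) and Ccnd1 the lowest difference (2.00 against 3.38 RPM, -0.55). Foxo3, the transcription factor that the study aimed lithium at, had 261 RPM at 5% O2 and 345 RPM at 20% O2, a log2 difference of -0.40 (-0.43 to -0.38). Foxo4 was higher at 5% O2 (8.60 against 2.74 RPM, 1.36), and 2 of 4 Foxo genes were at least 2-fold higher, of which Foxo6 passed the filter only through the 5% O2 column.

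Of 7 other lithium-sensitive enzymes, phosphatases and the phosphoglucomutases Pgm1 and Pgm2, 2 were at least 2-fold higher, with a median of 0.97, the value of Pgm2. Fbp2, a fructose bisphosphatase, was at 26.2 against 5.87 RPM (1.99), its paralog Fbp1 at 27.7 against 25.6 RPM (0.11) and Bpnt1, a bisphosphate nucleotidase, at 9.93 against 16.3 RPM (-0.66). In the inositol supply and phosphoinositide cycle, 6 of 26 genes were at least 2-fold higher and 3 lower, with a median of -0.04. Ippk, an inositol phosphate kinase, had the highest RPM (561 against 662 RPM, -0.24), Itpkc the highest difference (6.82 against 2.25 RPM, 1.27) and Pip5k1b the lowest difference (0.189 against 3.50 RPM, -1.92), having passed the filter only through the 20% O2 column.

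Around the destruction complex, 3 of 20 other genes of the complex, its ubiquitin ligase and its phosphatase were at least 2-fold higher, a share near the 18.7% of all genes, with a median of 0.58. Skp1a, a subunit of the ubiquitin ligase, had the highest RPM (1752 against 1088 RPM, 0.69), Ppp2r5b, a regulatory subunit of protein phosphatase 2A, the highest difference (22.3 against 5.04 RPM, 1.95) and Rbx1, the RING subunit of the ligase, the lowest difference (43.1 against 79.0 RPM, -0.86). Of Dishevelled and the other casein kinase 1 genes, 2 of 8 were at least 2-fold higher, with a median of 0.49. Csnk1e, casein kinase 1 epsilon, was at 522 RPM at 5% O2 and 132 RPM at 20% O2 (1.98), whereas Csnk1d, its close relative, was at 86.5 and 111 RPM (-0.36).

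At the cell surface, 7 of the 9 extracellular Wnt antagonists in the table had more RPM at 5% O2, as did most of all genes compared, whose median was 0.26. Of the 7 that passed the level filter, 6 were at least 2-fold higher, with a median of 1.45, but 3 of these 6, Sfrp4, Dkk4 and Kremen2, passed it only through the 5% O2 column, so that this count and median do not show how the list differed. Kremen1, a receptor for Dickkopf proteins, had the highest RPM (110 against 45.8 RPM, 1.24). Sfrp4, a secreted Frizzled-related protein, had 1409 reads or 10.7 RPM at 5% O2 and no read at 20% O2, at least 145-fold higher against a floor of 3 reads. Dkk1 was the lowest (2.22 against 3.20 RPM, -0.38). Of the 11 theca and stroma markers in the table, 10 also had more RPM at 5% O2, again beside a median of 0.26 for all genes compared. Among these markers, Cyp11a1 stood at 16.4 RPM against 0.122 RPM. The part of such markers in the antagonists' values was not tested.

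Of Wnt receptors and the genes of their turnover, 4 of 15 were at least 2-fold higher and 2 lower, with a median of 0.44. Of these, Fzd1 passed the filter only through the 5% O2 column and Fzd4 only through the 20% O2 column. Rspo2, an R-spondin that amplifies Wnt signalling, had the highest RPM (311 against 344 RPM, -0.15), Fzd8 the highest difference (47.6 against 16.8 RPM, 1.45) and Fzd4 the lowest difference (0.635 against 3.13 RPM, -1.34). Of the 6 ligands and secretion genes compared, Wnt7a was higher (21.9 against 3.67 RPM, 2.29), Wnt5a lower (2.98 against 7.14 RPM, -1.03) and Wls, which escorts Wnt proteins to the surface, at 20.1 against 30.2 RPM (-0.57).

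In the nucleus, 1 of 17 TCF/LEF factors and cofactors was at least 2-fold higher and 3 were lower, with a median of -0.02. The lower ones were Crebbp (136 against 349 RPM, -1.35), which had the highest RPM, Ep300 (70.9 against 152 RPM, -1.09) and Cdc73 (11.5 against 36.2 RPM, -1.58). Crebbp and Ep300 encode related histone acetyltransferases that act as coactivators. Ctbp2, a corepressor, was higher (89.7 against 38.8 RPM, 1.19).

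Of 14 beta-catenin target genes, 3 were at least 2-fold higher, with a median of 0.61, and of these 3 Cd44 and Cdx1 passed the level filter only through the 5% O2 column. Nkd1, a feedback inhibitor of Wnt signalling, had the highest RPM (190 against 93.1 RPM, 1.03), Cdx1 the highest difference (3.11 against 0.220 RPM, 1.75) and Znrf3 the lowest difference (12.5 against 18.9 RPM, -0.56). Of the genes of adherens junctions, 2 of 9 were at least 2-fold higher, Ctnnd1 (325 against 144 RPM, 1.16) and Jup (29.9 against 14.2 RPM, 1.02), and Ctnna2 had the lowest difference (3.36 against 6.17 RPM, -0.72). Jup, the paralog of beta-catenin, was far below Ctnnb1 per length in both conditions, with 4.64 and 2.21 RPM per kb.

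**Figure D4:**
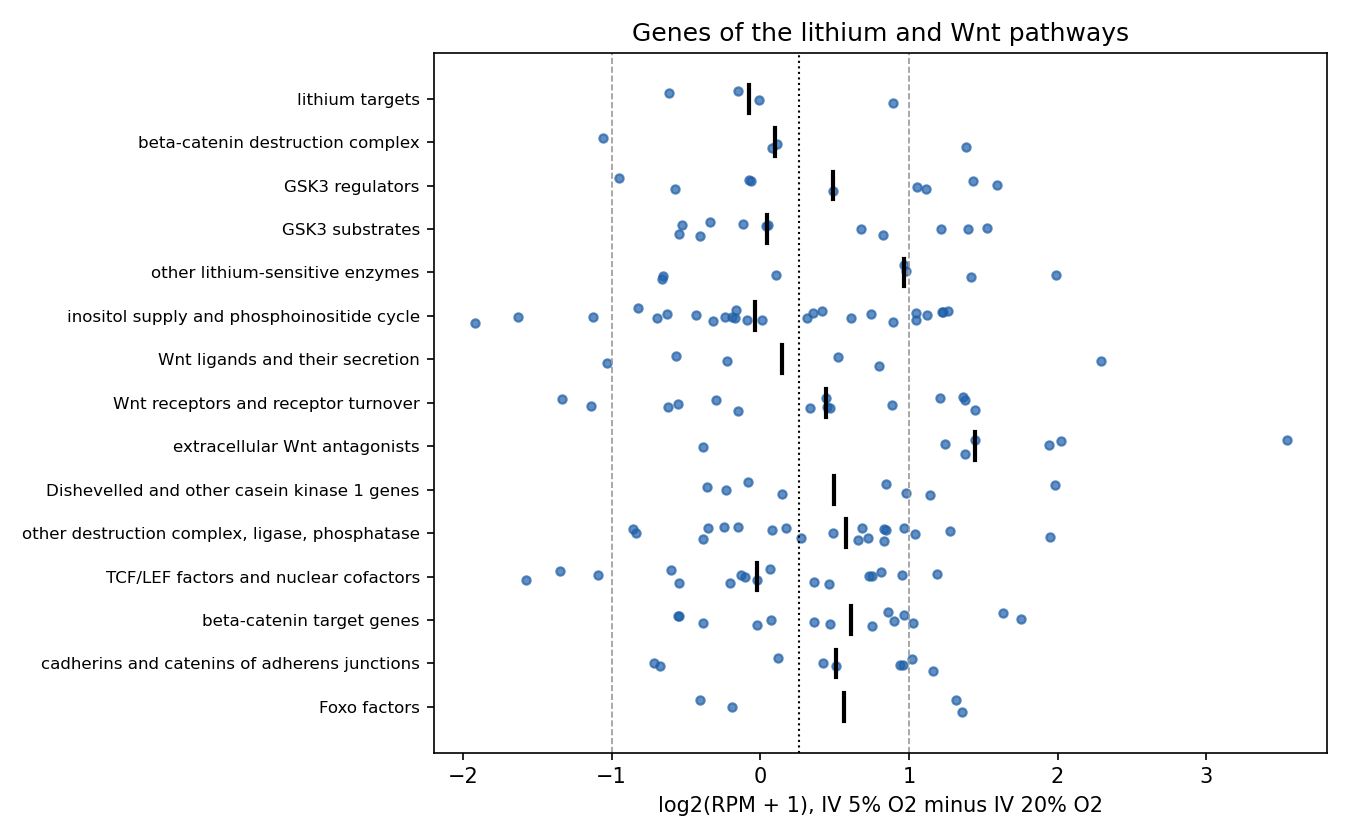
Difference in log2(RPM + 1), IV 5% O2 minus IV 20% O2, of each compared gene (points) in the 2 groups of members and the 13 pathway lists, with the median of each list as a black bar. Dashed lines mark 2-fold and the dotted line the median of all genes; genes are shown only where the mean of both conditions reached 1 RPM, and the 4 lithium targets have a median of -0.08.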

How the data were processed

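RNA-seq reads were trimmed by the authors with Trim Galore (versions 0.3.5 and 0.2.8 in the submitters' processing notes) and aligned to GRCm38 with TopHat2 (2.0.9). The study's methods state that they were quantified in SeqMonk over an oocyte transcript annotation. Of the 16591 rows, however, 16414 carry the start, end and strand of a GENCODE gene. The deposited values are log2 values, and 1 column stands for the 2 libraries of each condition; how the libraries were combined is not stated in the sources used here. Back-transformed values were whole multiples of 1 step within 0.1 of a read for 99.98% of the 16591 rows, so they are reads per 1000000 reads (RPM) without length correction, with 0.9 of a read in place of 0. This reading departs from the name of the table, which says RPKM, and from the study's methods, which state a correction for feature length; every level per kb given here rests on it. The table holds 1 further value column, which was not used here. Of 18 repeated names the row with the highest mean was kept.

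From these, reads, RPM and differences in log2(RPM + 1) were computed where the mean of both columns reached 1 RPM, and 2-fold either way counted as a call. Exact Clopper-Pearson 95% intervals of the ratio of reads, and Poisson intervals of levels, cover counting error only; intervals of ratios between members used the delta method. Exon length was the union of all exons of a gene in GENCODE models, matched by position for 16414 rows. GC, repeats and sequences came from the RefSeq chromosomes of GRCm38. The members and lists were chosen with earlier results of these data known. Named genes were the 8 members, for each list the gene with the highest level, the largest rise and the largest fall, Foxo3, genes nearest to Gsk3b and Ctnnb1, and, among markers, some of those with a call or without reads; Pgm1, Pgm2, other genes with a call, and the exonic neighbours of the members, were named after their values were seen. Alternatives were the pseudocount, the level filter, the scaling, summed rows and length. With 1 column for each condition no fit across libraries was possible, and the planned comparison of proteins was not analysed here. The scripts, tested on simulated data, ran under Python 3.11.15 with scipy 1.17.1, matplotlib 3.10.9, pandas 2.3.3, numba 0.67.0 and numpy 2.4.6.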

Additional observations from a re-analysis of the deposited data

How the results depend on the processing

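With a pseudocount of 5 RPM, 1202 genes were at least 2-fold higher and 706 lower, and 19 and 5 of the pathway lists. With a mean of at least 5 RPM, 1691 genes were higher. Median-ratio scaling gave 1700 higher genes (45.6% of calls, against 67.0% as deposited) and 21 and 14 of the pathway lists, and quantile normalization 1759 (48.5%) and 24; they moved the median gene from 0.26 to -0.04 and 0.06. Per kb of exon 1609 genes were higher and 899 lower, 20 and 2 of the pathway lists, and no member was lower, as Apc came to -0.96 (0 calls) and Impa1 fell under the level minimum and was not compared. Comparisons within deciles of GC, deciles of length and quintiles of both were chosen after seeing the data. Relative to genes of the same GC decile, or of the same quintiles of both, 0 of the 8 members were higher. Signs reversed after median-ratio scaling and quantile normalization for Ctnnb1 (-0.24 and -0.016), Csnk1a1 (-0.20 and -0.13), the median of the 4 destruction complex genes (-0.22 and -0.074), of GSK3 substrates (-0.27 and -0.14) and of Wnt ligands (-0.10 and -0.090). They reversed relative to deciles of GC, deciles of length and both as quintiles for Ctnnb1 (-0.12, -0.19 and -0.10) and Csnk1a1 (-0.076, -0.016 and -0.045). The Wnt ligand median reversed to -0.40 with a mean of at least 5 RPM and to -0.20 per kb, that of Foxo genes to -0.19 and -0.18, and that of the inositol genes to 0.014 without a filter. The cause of these shifts was not tested.

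Under the other pseudocounts, filters, scalings, summed rows and length, 46 values of members shifted by less than the distance from the reported value to the farther end of its counting interval, 12 moved and 4 reversed. The filters and summed rows could not change the value of a member, so their values, among the 46, were fixed in advance. The count of 46 is thus no measure of stability. Leaving out each library was not run, since the libraries are pooled. No paired analysis was possible because each condition has 1 pooled column. Ranking by RPM without length put Gsk3b above Gsk3a at 20% O2. Depth limits Impa1 most, with 169 reads in IV 20% O2. Spread between libraries and cultures is unknown here, and 5% and 20% O2 differ also in 9 against 14 days of culture and in how often the medium was changed.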
